A study of Arabidopsis thaliana with 4 samples.

Results

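The 202 probe sets described here gave a deposited signal of at least 1000 on every one of 4 arrays of Arabidopsis thaliana rosette leaves, out of 16319 probe sets analysed. They were chosen by these signals alone, so their high level is the rule and not a finding. PRK, SBPASE and GAPC2, which also met the threshold, were left out by name. Of the 202, 49 were paired with 1 annotated gene, 4 with several genes and 149 with no listed gene. Of all 16319 probe sets, 9685 were paired with 1 gene, 356 with several and 6278 with none. Probe sets without a listed gene were thus more frequent among the members. The function groups below describe only the 49. Leaves 5 to 8 of plants that were 5 weeks old and grown in short days were sampled before treatment (0 h) and 72 h after the roots were drenched with 0.5 mM probenazole (PBZ), which the submitters used to make the plants produce salicylic acid. They chose these leaves for the strongest yellowing. Each time point had 2 biological replicates with 1 Affymetrix array each. The labels used here name no accession or genotype and do not say how many plants were pooled. No untreated leaves of 72 h were among the samples, so the effects of PBZ and of 72 h of further growth cannot be told apart.

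A green leaf spends much of its messenger RNA on photosynthesis. Light is captured by antenna proteins and 2 photosystems in the thylakoid membranes of the chloroplast, and the energy drives the fixation of carbon dioxide by Rubisco. Rubisco also takes up oxygen, and the photorespiratory pathway, which runs through chloroplasts, peroxisomes and mitochondria, recovers the carbon of that side reaction. Housekeeping transcripts for protein synthesis, sugar metabolism and stress tolerance make up other bright signals of the leaf. A signal depends on how well a probe set binds as well as on its transcript. The order of 2 genes on an array is therefore not an order of transcript amounts, and the label of most abundant transcripts holds only in this sense of the brightest probe sets. In bulk leaf RNA, fewer cells of a type and less RNA per cell cannot be told apart.

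The 4 arrays did not share 1 scale, and this touches every result below. The median signal of all probe sets was 19.2 and 27.6 on the arrays before PBZ and 32.5 and 27.1 on those after it. The number of probe sets at or over 1000 was 274 and 393 before PBZ and 460 and 501 after it. Before PBZ replicate 1 was the dimmest array, and 98 of the 202 members had their lowest signal there. A further 59 probe sets missed the threshold on that array only, against 4, 13 and 14 for before PBZ replicate 2, after PBZ replicate 1 and after PBZ replicate 2. A total of 173 probe sets were at or over 1000 on both arrays after PBZ but not on both before it, and 40 the other way round. The members held 33.8% and 31.7% of the summed signal of all probe sets before PBZ and 25.1% and 26.8% after it. Both shares after PBZ were thus below both shares before it, and the difference of the group means was -6.8 percentage points (the SD between replicates was 1.52 points before and 1.19 points after). The difference was -3.15 points after quantile normalization of the arrays. The rule left out both the 173 and the 40 probe sets above, so the lower share of the members after PBZ is partly fixed by it.

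**Figure D1:**
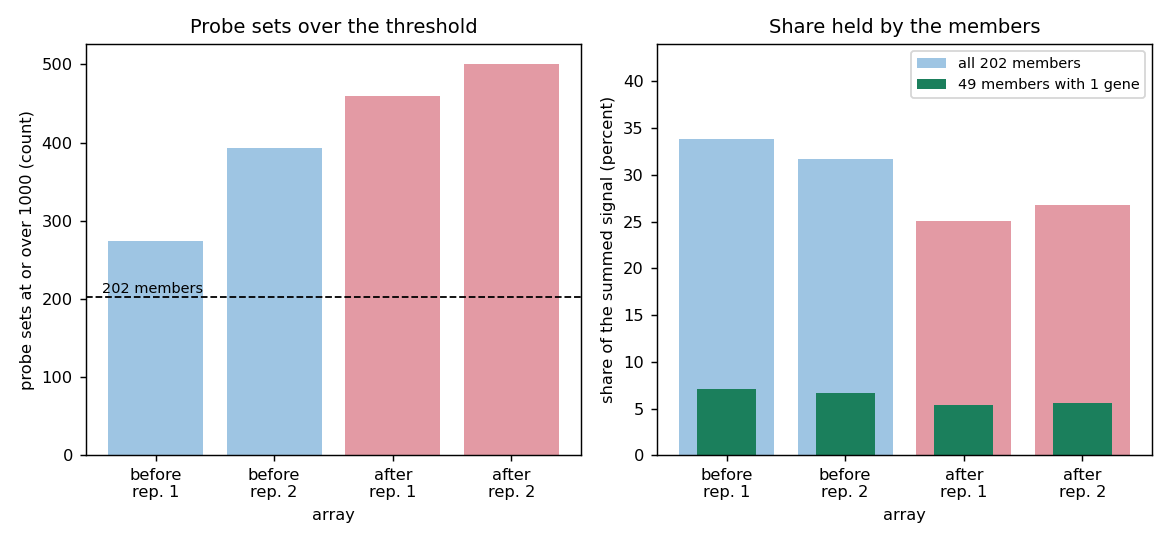
Left, the number of probe sets at or over a signal of 1000 on each of the 4 arrays, with the 202 members as a dashed line. Right, the share in percent of the summed signal of each array that was held by the 202 members (light bars) and by the 49 of them with 1 gene (dark bars). The count grew from 274 and 393 to 460 and 501, and the members' share was 33.8% and 31.7% before PBZ and 25.1% and 26.8% after it.

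Across the 202 members, chosen by these same signals, the median log2 change was below that of all probe sets under each scaling tried, and its size depended on the scaling. As deposited, the median (after PBZ minus before PBZ) was 0.02 over the members and 0.37 over all 12239 probe sets tested. It was -0.24 against -0.06 under quantile normalization, -0.35 against 0.01 with arrays centred on their median, and -0.37 against -0.02 with the hybridization controls at the same level. The ratio of these controls to their mean over the arrays was 0.807 and 0.934 before PBZ and 1.48 and 0.88 after it. Only after PBZ replicate 1 stood above that mean. All 202 members passed the filter on dim probe sets. With limma, 1 member was called higher and 1 lower at an adjusted p under 0.05, and 24 had an unadjusted p under 0.05. Over all probe sets tested, 5.34% were called higher and 0.245% lower. A member whose signal dropped under 1000 on any array is not in the set, so nothing is read from these counts. Without before PBZ replicate 2 the counts were 20 higher and 2 lower, and without either array after PBZ they were 0 and 0. With the replicate number as a block they were 10 and 3. By signal, 48 members had both values after PBZ above both earlier ones and 30 had both below, against 36.1% and 10.6% of all probe sets tested.

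Ranks within an array, where 1 is the brightest probe set, do not depend on how an array was scaled. The median rank of the members was 108.5 and 105.5 before PBZ and 131.5 and 121.5 after it. By rank, 82 members (40.6%) had both ranks after PBZ dimmer than both earlier ranks, and 30 (14.9%) were brighter. Among all probe sets tested, 26.0% were dimmer and 23.3% brighter in this sense. With 2 arrays against 2, an exact 2-sided permutation test cannot give a p below 0.333, so ranks were not tested. The excess of dimmer members is partly fixed by the rule. A probe set at or over 1000 cannot rank below 274 on before PBZ replicate 1 but can rank as low as 501 on after PBZ replicate 2. In a set chosen instead by a rank of 300 or better on all 4 arrays (162 probe sets, 155 of them members), 50 were dimmer and 34 brighter. When the members were ranked among themselves, 51 were dimmer and 47 brighter. The absolute rank difference between 2 replicates had a median of 24 before PBZ and 32.75 after it, and that between group means 43.25.

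**Figure D2:**
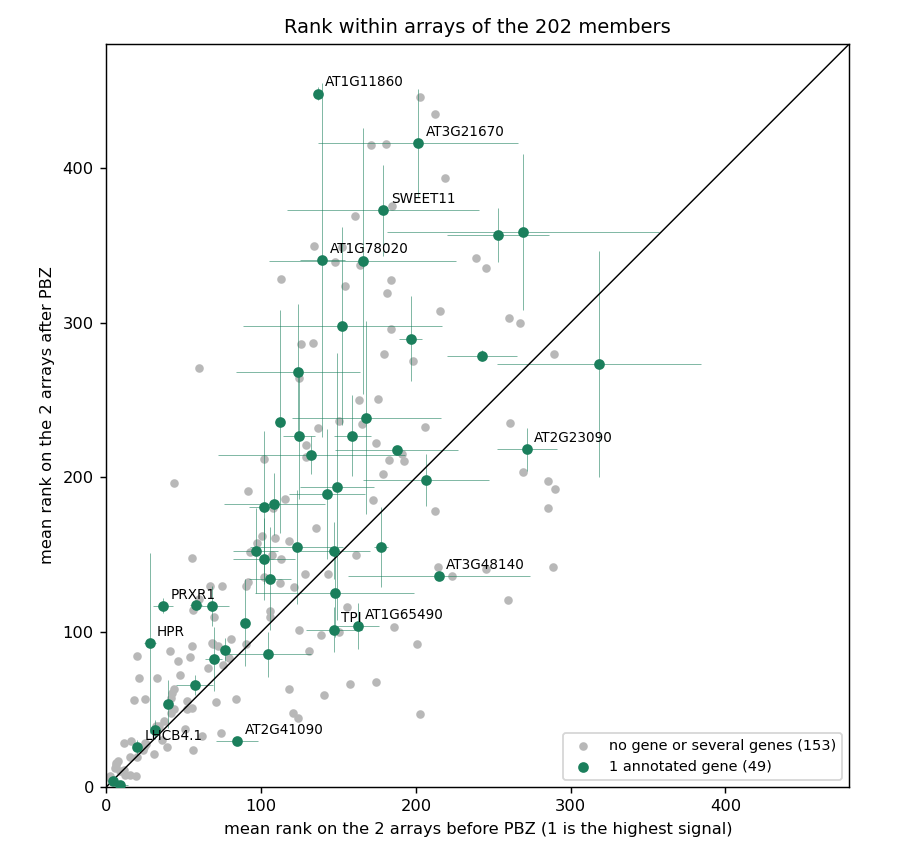
Mean rank of each of the 202 members on the 2 arrays before PBZ (x axis) and on the 2 arrays after it (y axis), with 1 as the brightest probe set. Dark points are members with 1 gene and their bars span the 2 replicates, grey points are the other 153, and the line marks equal ranks. AT1G11860 lies farthest above the line of the labelled genes and AT2G41090, TPI, AT1G65490, AT3G48140 and AT2G23090 lie below it.

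The order among the members was kept better within a time point than between them. Log2 signals of the 202 members had r = 0.859 for the pair of arrays before PBZ and r = 0.881 for the pair after it. Pairs of arrays from different time points had r from 0.731 to 0.830. These values are across probe sets, which share the probes and the arrays and are not replicates. Of the 50 brightest probe sets, 41 were shared by the 2 arrays before PBZ and 37 by the 2 after it, and 31 to 36 by arrays of different time points. By chromosome, 23 of the 49 genes lie on chromosome 1, 7 on chromosome 2, 14 on chromosome 3, 4 on chromosome 4 and 1 on chromosome 5. Among all probe sets with 1 gene the corresponding counts were 3170, 2068, 2666, 1674 and 69. Chromosome 5 was thus hardly covered by annotated probe sets. Whether its other probe sets are missing from the deposited values or have no listed gene was not examined. Ranks, shares and the choice of the 202 members refer only to the probe sets analysed here. Bright transcripts of chromosome 5 may lie outside them.

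None of the 49 members with 1 gene passed the limma test as deposited (adjusted p from 0.087 to 0.989), and 5 had an unadjusted p under 0.05. The standard errors of their log2 changes lay between 0.28 and 0.45. Ranks were dimmer on both arrays after PBZ for 22 of the 49 (44.9%) and brighter for 6 (12.2%), against 26.0% and 23.3% of all probe sets tested. The limit that the threshold sets on ranks applies here too, and 15 were dimmer when such genes were ranked among themselves. The rank counts of the function groups below are read against these shares, and none was tested. The genes were sorted into groups from their names and from general knowledge of the locus, not from their values. Roles of genes known by locus only are such general knowledge.

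**Figure D3:**
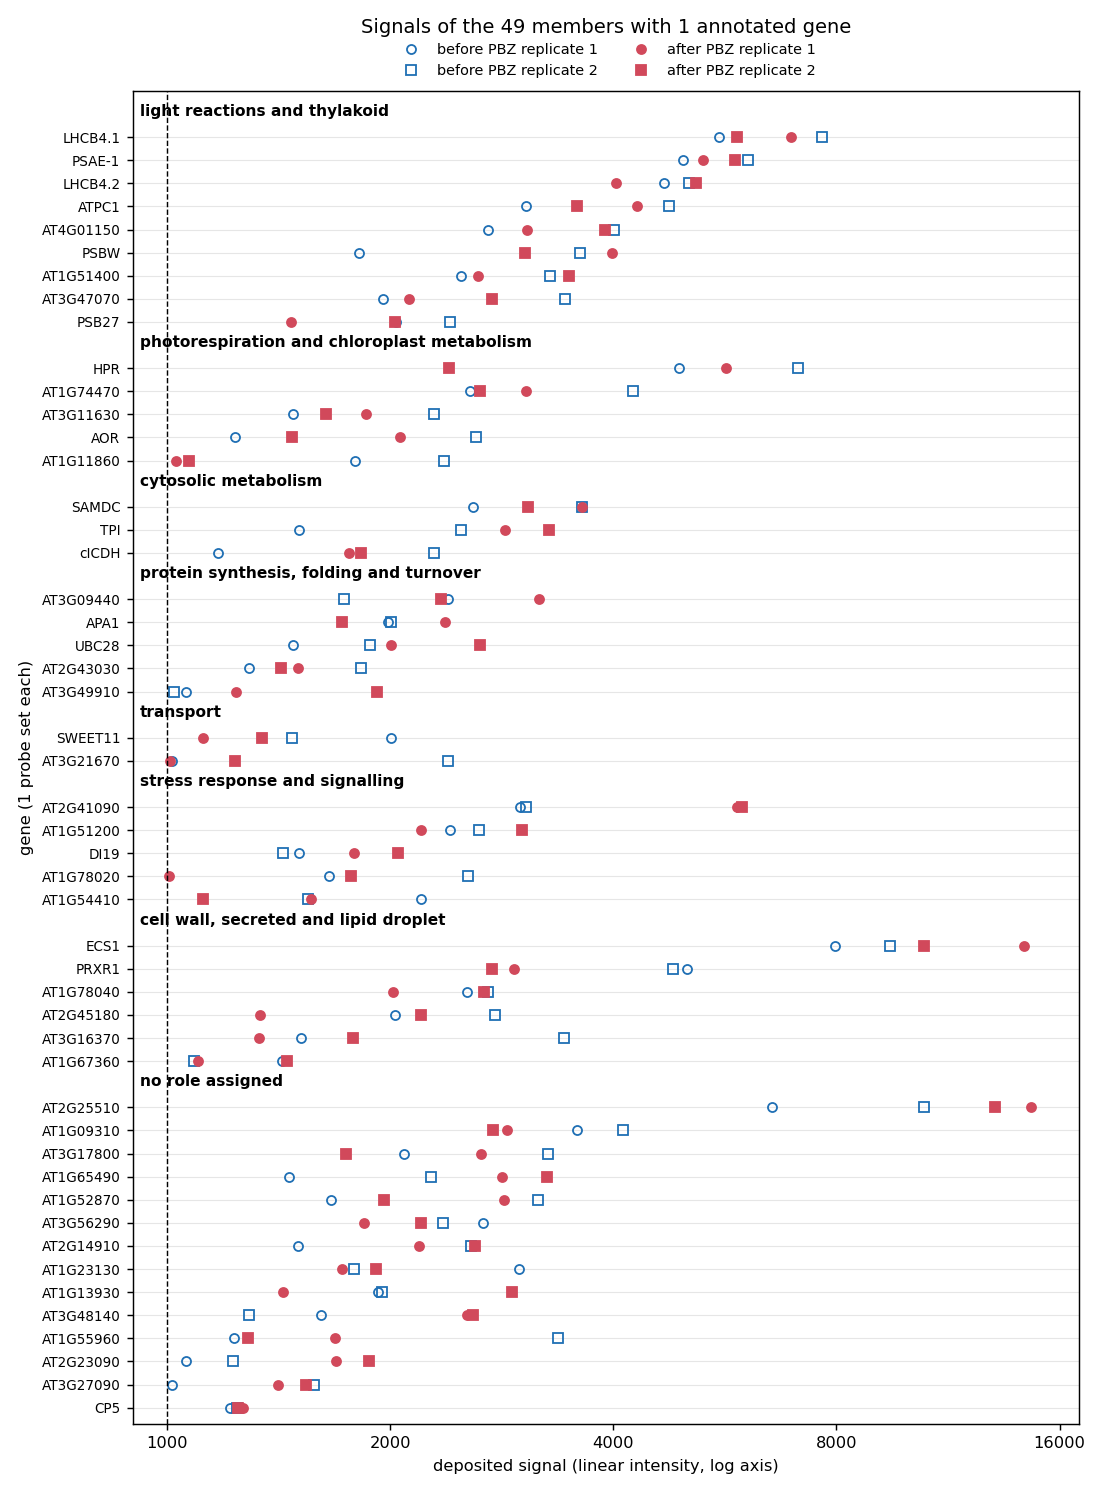
Deposited signal (log axis) of the 49 members with 1 gene on each of the 4 arrays, by function group. Open blue symbols are the arrays before PBZ and filled red symbols those after it, and the dashed line is the threshold of 1000. Of the 49 genes, 11 were higher and 6 lower on both arrays after PBZ, against 36.1% and 10.6% of all probe sets tested. AT2G41090, PRXR1, AT1G11860, AT3G48140 and AT2G25510 are among them. The 2 time points overlap for 8 of the 9 light reaction genes.

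Of the 9 members of the light reactions and the thylakoid, 8 had overlapping ranks at the time points, as did 6203 of the 12239 probe sets tested. Their median log2 change was 0.02 as deposited, -0.15 under quantile normalization and -0.35 with centred arrays. LHCB4.1 and LHCB4.2 are 2 forms of CP29, a minor antenna protein that links the main antenna to photosystem II. LHCB4.1 read 5556 and 7642 before PBZ and 6940.3 and 5879 after it. LHCB4.2 read 4687 and 5059 before PBZ and 4039.7 and 5177 after it. For both genes the time points overlapped, with log2 changes of -0.03 ± 0.31 (SE) and -0.09 ± 0.33. Another CP29 gene, LHCB4.3, was not a member. It read 674.5 and 963 before PBZ and 439 and 392 after it, with ranks of 428 and 418 before and 1337 and 1389 after (log2 change -0.96 ± 0.49, limma adjusted p = 0.318; the difference between the 3 genes was not tested).

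PSAE-1, a stromal subunit of photosystem I near the docking site of ferredoxin, ranked 31 and 32 before PBZ and 43 and 31 after it. Its signals were 4973 and 6079 before PBZ and 5287 and 5847 after it, and the time points overlapped. ATPC1, the gamma subunit of the chloroplast ATP synthase, read 3051 and 4761 before PBZ and 4307 and 3571 after it, again with overlap. PSBW, a small subunit that stabilises photosystem II, was dim on 1 array: it read 1813 before PBZ in replicate 1 and 3604 in replicate 2, against 3987 and 3038 after PBZ. Its log2 change of 0.45 ± 0.38 therefore sits on before PBZ replicate 1.

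AT4G01150 (CURT1A), which bends thylakoid membranes at the margins of the grana, read 2708 and 4010.4 before PBZ and 3064 and 3903 after it. AT1G51400, annotated in general knowledge as a 5 kD protein of photosystem II, read 2489.8 and 3290.1 before PBZ and 2629 and 3487 after it. AT3G47070, a soluble phosphoprotein of the thylakoid, read 1957 and 3447 before PBZ and 2120.4 and 2747 after it. All 3 overlapped between the time points. PSB27, a lumenal factor for the assembly and repair of photosystem II, was the exception of the group. It read 2035 and 2406 before PBZ and 1472 and 2032 after it. Its ranks were 114 and 135 before PBZ and 268 and 186 after it, so both arrays after PBZ were dimmer, though the 2 signals of 2035 and 2032 nearly touch (log2 change -0.36 ± 0.40).

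Of the 5 members of photorespiration and chloroplast metabolism, 4 had dimmer ranks on both arrays after PBZ (26.0% of all probe sets tested and 40.6% of the members did), 1 was lower in signal on both, and 0 were called by limma. Their median log2 change was -0.22. AT1G11860, the T protein of glycine decarboxylase, the mitochondrial complex that releases the carbon dioxide of photorespiration, had the largest rank loss of the 49 genes. That loss was 311.5 places between mean ranks. Places lost do not measure a fold: the brighter PRXR1 lost 80.5 places at a log2 change of -0.80. AT1G11860 read 1791 and 2364 before PBZ and 1028 and 1072 after it. Both arrays after PBZ lay below both before it and just above the threshold. Its ranks were 134 and 139 before PBZ and 444 and 452 after it, and the fold was 1.96 lower (log2 change -0.97 ± 0.42, limma adjusted p = 0.207). The adjusted p was 0.0103 after quantile normalization and 0.0261 with array medians made equal, and lay between 0.16 and 0.71 under the other 9 alternatives.

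HPR, the hydroxypyruvate reductase of peroxisomes, read 4903 and 7095 before PBZ and 5681 and 2398 after it. The low value belongs to after PBZ replicate 2 alone, where its rank was 151 against 32, 24 and 35 on the other 3 arrays. Its log2 change was -0.68 ± 0.37, and -0.05 without that array. AT1G74470, a geranylgeranyl reductase that makes the side chain of chlorophyll and tocopherol, ranked 79 and 57 before PBZ and 104 and 130 after it. Its signals of 2566 and 4253 before PBZ and 3052 and 2646 after it overlapped.

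AT3G11630, a 2-Cys peroxiredoxin that removes peroxides in the chloroplast, ranked 171 and 147 before PBZ and 201 and 253 after it, with overlapping signals from 1480.1 to 2295. AOR, a reductase of reactive carbonyls, read 1235 and 2609 before PBZ and 2066 and 1475 after it. Its 2 arrays before PBZ spanned those after it. In signal, AT1G11860 was the gene of this group without overlap.

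The other genes of the photorespiration list with an annotated probe set had the same direction by rank. The list used here held 21 loci and 6 were in the table, of which HPR and AT1G11860 are members. All 6 had both ranks after PBZ dimmer than both earlier ranks, against 26.0% of all probe sets tested and 40.6% of the members. Of the 6, 0 passed the limma test. The lists were written with earlier results of these data known, and 2 of the 6 are members chosen by level. The median log2 change of the 6 was -0.59. AT1G32470, an H protein of glycine decarboxylase, missed the threshold on 1 array: it read 1274 and 2027 before PBZ and 990.2 and 1211 after it, and its ranks went from 209 and 166 to 463.5 and 385. LrgB (AT1G32080), the plastid transporter of glycolate and glycerate, ranked 384 and 232 before PBZ and 661.5 and 524 after it.

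AT1G80380, glycerate kinase, the last enzyme of the pathway, ranked 690 and 566 before PBZ and 801 and 1272 after it. AT2G35120, a second H protein, was dim throughout, with signals of 82.2 and 63.1 before PBZ and 41.6 and 51.7 after it. The log2 changes of these 4 genes were -0.55 ± 0.43, -0.31 ± 0.47, -0.11 ± 0.50 and -0.64 ± 0.56. Those of LrgB and AT1G80380 turned to 0.21 and 0.25 without before PBZ replicate 2, and that of AT1G80380 to 0.23 without after PBZ replicate 2. Under quantile normalization the 6 log2 changes lay between -1.35 and -0.62.

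**Figure D4:**
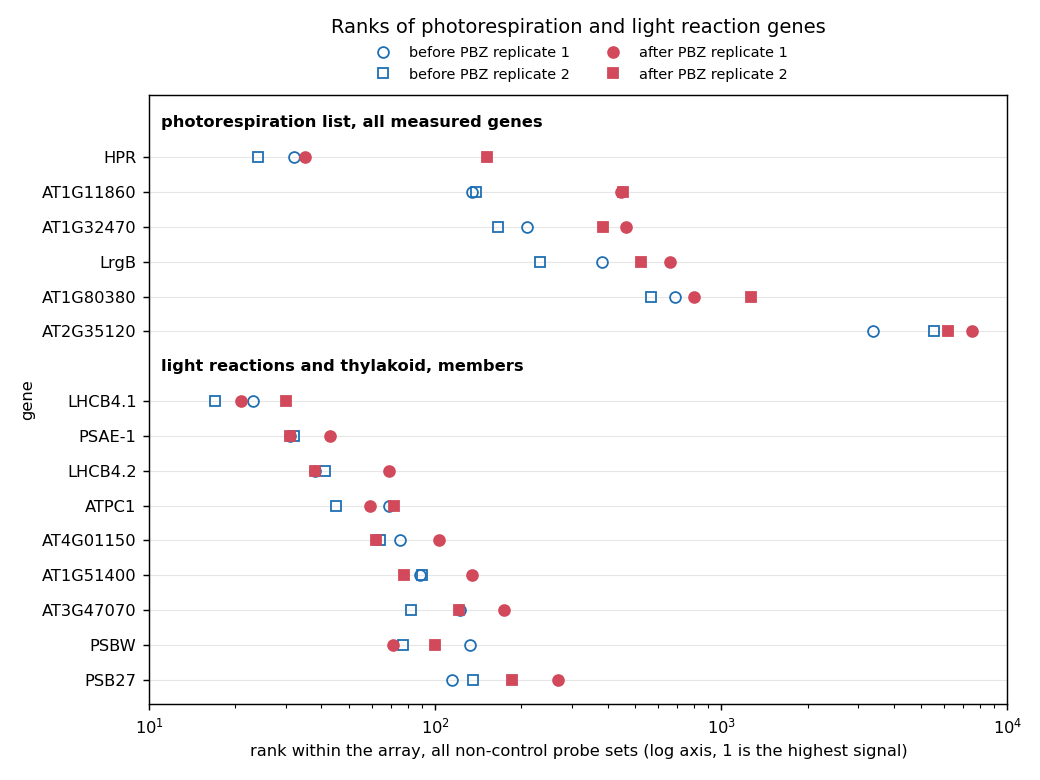
Rank within each array (log axis, 1 is the brightest probe set) of the 6 genes of the photorespiration list with an annotated probe set and of the 9 members of the light reactions and thylakoid. Open blue symbols are arrays before PBZ and filled red symbols those after it. For the 6 photorespiration genes both red symbols lie to the right of both blue ones. For 8 of the 9 light reaction genes the colours overlap. The sets were chosen differently, so they are not compared like for like. Only 2 of the 6 photorespiration genes are members, whereas all 9 light reaction genes are. LHCB4.3, an antenna gene that was not a member, is not shown. It ranked 428 and 418 before PBZ and 1337 and 1389 after it.

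The remaining pathway lists held few genes of this table. Across 16 pathway lists with 179 loci, 16 loci were in the table and tested, 8 of them members, and 0 passed the limma test. A locus was found only where a probe set was annotated with that 1 gene. Of the 16319 probe sets, 6278 had no listed gene. AT1G56190, a phosphoglycerate kinase, was the sole gene found of the Calvin-Benson list used here. PRK and SBPASE, left out by name, were not counted in it. AT1G56190 read 729.6 and 1082 before PBZ and 1216 and 1079.5 after it. AT3G52960, the type II peroxiredoxin of the chloroplast, read 432.7 and 328 before PBZ and 187 and 224 after it (log2 change -0.88 ± 0.53; limma adjusted p = 0.429, 0.04 under quantile normalization, and 0.106 to 0.859 under the other alternatives). MT1C, a metallothionein, read 499 and 524 before PBZ and 686 and 1134 after it. The lists of carbonic anhydrases, translation factors, aquaporins, the myrosinase system, ubiquitins, actin and tubulin, lipid transfer proteins and glycine-rich RNA-binding proteins had no gene annotated to a probe set here and were not analysed. Their probe sets may be among those with no listed gene. Of 24 marker loci for leaf and seed cell types 2 were in the table, so the tissue was not checked by markers. The leaf label is that of the sample descriptions. The guard cell factor FMA read between 22.5 and 35.5 and the phloem transporter SWEET11 over 1000 on every array.

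Among 3 enzymes of cytosolic metabolism, TPI was brighter on both arrays after PBZ. TPI, the cytosolic triosephosphate isomerase of glycolysis, read 1508 and 2494 before PBZ and 2860 and 3281 after it, and its ranks went from 165 and 129 to 116 and 87 (log2 change 0.66 ± 0.39, limma adjusted p = 0.411). cICDH, the cytosolic isocitrate dehydrogenase that makes NADPH, read 1172 and 2293 before PBZ and 1758 and 1829 after it. SAMDC, S-adenosylmethionine decarboxylase of polyamine synthesis, read 2584 and 3625 before PBZ and 3626 and 3065 after it. The time points overlapped in signal for cICDH and SAMDC. SAMDC ranked 78 and 75 before PBZ and 81 and 96 after it, a small loss without overlap.

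The 5 members of protein synthesis, folding and turnover had a median log2 change of 0.42, the highest of the function groups, close to the 0.37 of all probe sets tested. AT3G49910, a protein L26 of the cytosolic ribosome, read 1061 and 1024 before PBZ and 1241 and 1922 after it. UBC28, a ubiquitin-conjugating enzyme, read 1478 and 1882 before PBZ and 2007 and 2647 after it. In signal both genes were higher on both arrays after PBZ, and in rank both overlapped. The cytosolic HSP70 chaperone AT3G09440 read 2391 and 1731 before PBZ and 3179.9 and 2341 after it.

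APA1, a vacuolar aspartic proteinase, lay between 1724 and 2376 on the 4 arrays. For AT3G09440 and APA1 the time points overlapped in signal and in rank. AT2G43030, a protein L3 of the chloroplast ribosome, ranked 204 and 189 before PBZ and 262 and 317 after it, while its signals of 1291 and 1827 before PBZ and 1501 and 1425 after it overlapped. The cytosolic and the chloroplast ribosomal gene had log2 changes of 0.57 ± 0.43 and -0.07 ± 0.42, and their difference was not tested.

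Both transporters ranked dimmer after PBZ. SWEET11, which releases sucrose from phloem parenchyma for loading, read 2009 and 1473 before PBZ and 1118 and 1343 after it. Both signals after PBZ were below both before it, and its ranks went from 117 and 241 to 402 and 343 (log2 change -0.49 ± 0.42, limma adjusted p = 0.615). AT3G21670 (NPF6.4), of the nitrate and peptide transporter family, read 1015 and 2393 before PBZ and 1011 and 1234 after it. Its signals overlapped, and before PBZ replicate 2 alone stood high. Neither gene ranked 300 or better on all 4 arrays, so the rank losses of both lie in the range where the threshold allows losses and hardly allows gains.

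Members of stress response and signalling went both ways. AT2G41090 (calmodulin-like, a calcium sensor) read 2993 and 3047 before PBZ and 5870.5 and 5967 after it. Both arrays after PBZ were far above both before it, at a fold of 1.96, and its ranks went from 71 and 98 to 31 and 28 (log2 change 0.97 ± 0.33, limma adjusted p = 0.087). It passed with the replicate number as a block (adjusted p = 0.0127) and without before PBZ replicate 2 (0.0347). It did not pass under the other 9 alternatives (0.065 to 0.59), and its log2 change was 0.60 with centred arrays (adjusted p = 0.347). DI19, a zinc finger protein named for its induction by drought, read 1507 and 1434 before PBZ and 1786 and 2052 after it, higher on both arrays after PBZ in signal and overlapping in rank.

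AT1G51200, a stress-associated protein with A20 and AN1 zinc fingers, lay between 2205 and 3018 with overlap. AT1G54410, a small dehydrin, read 2199.5 and 1552 before PBZ and 1566 and 1117 after it. AT1G78020, a protein with an FCS-like zinc finger, read 1652 and 2545 before PBZ and 1007 and 1772 after it. Signals of both overlapped between the time points, and ranks did not: they went from 105 and 226 to 254 and 426 for AT1G54410 and from 154 and 125 to 455 and 226 for AT1G78020.

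The 6 members of the cell wall, secretion and lipid droplets included a gene near the top of every array and 4 rank losses. ECS1, which encodes a small cell wall protein, read 7955 and 9452 before PBZ and 14326 and 10494 after it, and ranked 1, 7, 2 and 5. Its log2 change of 0.50 ± 0.28 was 0.01 under quantile normalization. PRXR1, a class III peroxidase, read 5028 and 4823 before PBZ and 2935 and 2743 after it. The 2 time points were well apart, at a fold of 1.74 lower, and the ranks went from 30 and 43 to 112 and 122 (log2 change -0.80 ± 0.34, limma adjusted p = 0.209). PRXR1 passed under quantile normalization (adjusted p = 0.0234) and with arrays centred on their median (0.0409), and not under the other 9 alternatives (0.0946 to 0.748).

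AT3G16370, a GDSL lipase, read 1517 and 3436 before PBZ and 1332 and 1783 after it. AT2G45180, a protein of the lipid transfer and protease inhibitor family, read 2029.6 and 2771 before PBZ and 1337 and 2202 after it. AT1G78040, of the Ole e 1 allergen family, lay between 2015 and 2709. For these 3 genes signals overlapped and both ranks after PBZ were dimmer, by 144, 124 and 56 places between mean ranks. AT1G67360, a lipid droplet protein, overlapped in both, with signals from 1088 to 1453.

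For 14 genes no role was assigned, and their values are given by locus. AT2G25510 gave the highest mean log2 signal of all members: it read 6551 and 10513 before PBZ and 14641 and 13082 after it. It ranked 14 and 4 before PBZ and 1 and 1 after it, higher on both arrays after PBZ (log2 change 0.74 ± 0.28, limma adjusted p = 0.146). For AT2G25510 the log2 change was 0.35 under quantile normalization, 0.37 with centred arrays and 0.40 without before PBZ replicate 1. It passed with the replicate number as a block (adjusted p = 0.00375), though the numbers are not taken as pairs, and without before PBZ replicate 2 (0.00482). Under the other 9 alternatives the adjusted p was 0.102 to 0.676. AT3G48140 read 1613 and 1289.7 before PBZ and 2541 and 2588 after it, and its ranks of 156 and 274 before PBZ became 137 and 135, the largest gain of the 49 genes. AT1G65490 read 1463 and 2272 before PBZ and 2829.6 and 3255 after it. AT2G23090 read 1061 and 1226 before PBZ and 1692 and 1875 after it. All 4 of these genes were higher on both arrays after PBZ in signal and in rank.

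In the other direction, AT1G09310 read 3577 and 4123 before PBZ and 2872 and 2756 after it, with ranks from 54 and 62 to 115 and 120. AT3G56290 read 2668 and 2359 before PBZ and 1845 and 2202 after it. These 2 genes were lower on both arrays after PBZ in signal and in rank. AT1G55960, AT1G23130, AT3G17800 and AT3G27090 ranked dimmer on both arrays after PBZ, by 145.5, 82, 79 and 36 places between mean ranks, with overlapping signals. CP5 had the steadiest signal, at 1216 and 1242 before PBZ and 1265 and 1245 after it. Its rank nonetheless went from 220 and 286 to 339 and 374, as more probe sets stood above it on the arrays after PBZ. AT1G52870, AT2G14910 and AT1G13930 overlapped in signal and in rank.

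The 153 members without a single gene make up most of the set and are described by their counts. Of the 149 with no listed gene, 60 ranked dimmer (40.3%) and 22 brighter (14.8%) on both arrays after PBZ, against 26.0% and 23.3% of all probe sets tested. In signal 34 were higher and 24 lower on both, where 36.1% and 10.6% of all probe sets tested were. Their rank changes lay between -155.5 and 244 places. The 2 members called by limma are among them and are named by probe set after their values were seen. Probe set 266461_at read 1379 and 1604 before PBZ and 4363.5 and 5241 after it, a log2 change of 1.69 ± 0.37 (limma adjusted p = 0.00343) with ranks from 188 and 217 to 57 and 37. Probe set 261191_at read 4638 and 4566 before PBZ and 2320.3 and 1691 after it, a log2 change of -1.22 ± 0.36 (adjusted p = 0.0419) with ranks from 41 and 46 to 154 and 239. With no filter on dim probe sets both failed the limma test (adjusted p = 0.0942 for 266461_at and 0.28 for 261191_at). They also failed it with no intensity trend (0.227 and 0.383 in that order). Neither passed without 1 of the arrays after PBZ (0.0956 and 0.229 for 266461_at, 0.202 and 0.57 for 261191_at). Probe set 261191_at also did not pass without before PBZ replicate 1 (0.082). Of the 4 members that match several genes, 3 were higher on both arrays after PBZ in signal, 2 of them in rank also.

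The choice of scale set the sign of many small changes among the 49 genes. As deposited 26 log2 changes were above 0 and 23 below it, and both under quantile normalization and with arrays centred on their median 12 were above and 37 below, with 14 genes turning sign. The median over the 49 was 0.02, -0.25 and -0.35 in that order. Light reaction genes turned among them: PSAE-1, ATPC1, AT4G01150 and AT1G51400 were between 0.02 and 0.08 as deposited and between -0.15 and -0.10 under quantile normalization. The transport group stayed lowest by median (-0.48 as deposited, -0.88 under quantile normalization, -0.85 with centred arrays), and protein synthesis, folding and turnover stayed highest (0.42, 0.15 and 0.06). AT2G41090 stayed above 0 (0.86 and 0.60 in the 2 alternatives), as did TPI (0.38 and 0.29).

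**Figure D5:**
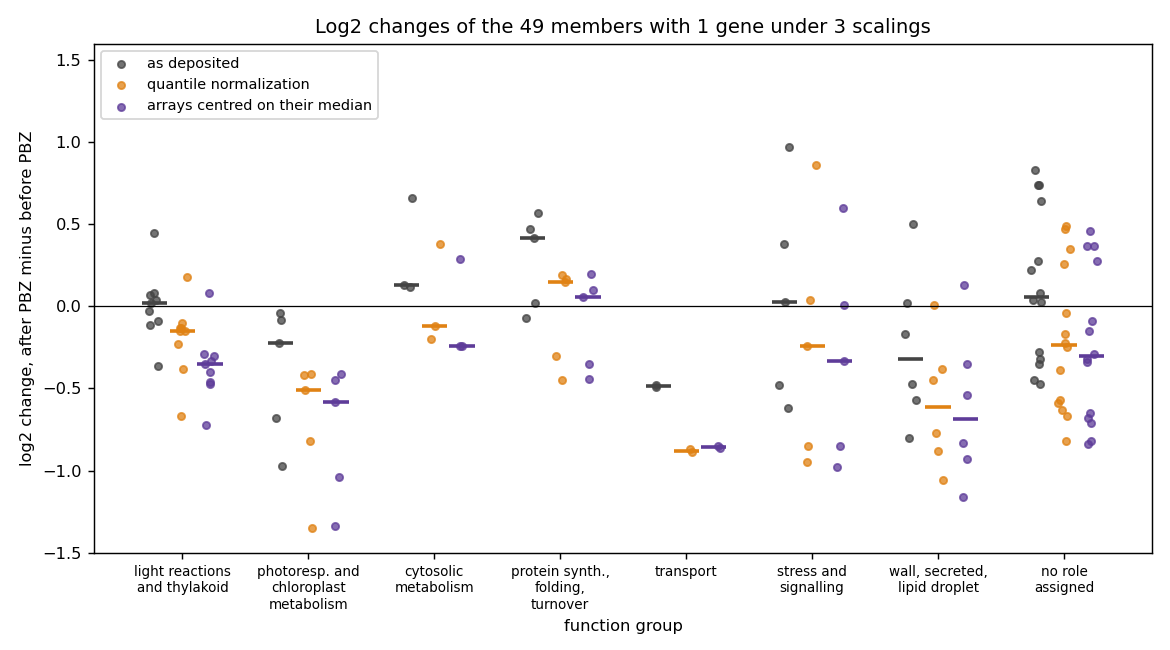
Log2 change (after PBZ minus before PBZ) of each of the 49 members with 1 gene, by function group, with signals as deposited, after quantile normalization and with arrays centred on their median. Horizontal marks are group medians. The medians of all groups but protein synthesis, folding and turnover were below 0 in both alternatives.

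Values near the threshold, given once, show how the set is bounded. Just inside it, AT1G78020 had its lowest signal at 1007 (after PBZ replicate 1), AT3G21670 at 1011 (after PBZ replicate 1) and AT3G27090 at 1015 (before PBZ replicate 1). Just outside it, AT4G37830 had its lowest signal at 996.3 (before PBZ replicate 1), AT1G32470 at 990.2 (after PBZ replicate 1) and AT3G26070 at 968.6 (before PBZ replicate 1). Of the members 86 were at or over 2000 on all arrays, 16 of them with 1 gene, and 33 at or over 4000.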

How the data were processed

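The values are linear signal intensities of each probe set on 1-colour Affymetrix arrays hybridised with biotin-labelled cRNA, used as the authors deposited them. Per the submitters' processing notes they come from GCOS. Its version and scaling target are not stated there, and detection calls were not used here. Samples were grouped by their titles. After leaving out 64 control rows, 16319 probe sets were ranked within each array (ties averaged). The platform annotation gave genes, and TAIR10.1 RefSeq symbols were used for names only. Signals of 0 were set to 0.1. limma 3.58.1 in R 4.3.3 (lmFit, eBayes with an intensity trend) compared log2 signals of the groups over the 12239 probe sets outside the dimmest 0.25, 2-sided, with Benjamini-Hochberg adjustment at 0.05. The script was checked on simulated data. The fit had 2 residual and 27.2 prior degrees of freedom. Only 2 arrays per group limit the precision. Replicates were described as biological by the submitters.

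The members and lists were chosen with earlier results of these data known. Named are the 15 brightest genes, the 10 largest rank losses and gains without overlap (the gains numbered 6), the 3 brightest per function group, list genes, and the 3 genes on each side of the threshold. The other genes of the 49 were added after their values were seen. No sequences were used here. Alternatives were other thresholds, scalings, filters, a pseudocount of 1.3, no intensity trend, each array left out, and a block for the replicate number. Python 3.11.15 was used for ranks and counts.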

Additional observations from a re-analysis of the deposited data

Results flagged for a closer look

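The control probe sets of Arabidopsis transcripts printed on the array lay outside the comparisons. Of 64 control rows, 7 such sets read at or over 1000 on all 4 arrays. They are sets of actin and ubiquitin only and not independent of each other. Both values after PBZ were above both earlier ones for 5 of the 7, and for 36.1% of all probe sets tested. The log2 differences of these 5 were 0.69 and 0.42 for 2 sets of the 3' end of actin, 0.44 and 0.36 for 2 sets of the 5' end of ubiquitin and 0.45 for its middle set. The other 2, of the 3' end of ubiquitin, overlapped between the time points, with log2 differences of 0.39 and 0.48. These values lie around the median log2 change of all probe sets tested (0.37), and no group of 2 arrays was large enough to look for an outlying array.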

How the results depend on the processing

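The number of members was 482, 123 and 86 at thresholds of 500, 1500 and 2000, and 380 when the mean of the 4 arrays had to reach 1000. It lay between 206 and 261 with 1 array left out, was 206 after quantile normalization (182 shared) and 202 with equal array medians (181 shared). Members called higher and lower numbered 1 and 6 under quantile normalization, 1 and 5 with centred arrays, 0 and 0 with no filter on dim probe sets, 0 and 0 with no trend in the fit, 6 and 3 with the dimmest 0.5 left out, and 2 and 1 with the pseudocount. With 1 array left out they ranged from 0 to 20 higher and from 0 to 2 lower. With the replicate block they were 10 and 3. Deviations of same-numbered arrays from their group means had r = -0.064 across probe sets tested and r = -0.263 across the members. The numbers are therefore not taken as pairs, also where a result with the block is given. The median log2 change of the members was -0.24 under quantile normalization, -0.35 with centred arrays and -0.37 with the hybridization controls at the same level (added after the data were seen), and ranged from -0.16 to 0.2 with 1 array left out. In these 3 scalings the median of all probe sets was -0.06, 0.01 and -0.02. Members dimmer and brighter by rank numbered 51 and 47 ranked among themselves, and 50 and 34 in the set chosen by rank. With 1 array left out, where 2 arrays face 1, they ranged from 104 to 116 and from 42 to 54. Of genes with 1 annotation 15 were dimmer when ranked among such genes alone, and 12 of 38 in the set chosen by rank. The share of summed signal differed by -3.15 percentage points under quantile normalization and by -4.07 points over probe sets with 1 gene, and ranged from -7.88 to -5.73 with 1 array left out. Of the 49 log2 changes of single genes, 23 under quantile normalization and 32 with centred arrays moved by more than the SD between replicates. The other filters, the block and the trend leave a log2 change as it is by construction, and leaving out 1 of 2 arrays cannot move it past that SD. The causes of these shifts were not tested. Signals carry no detection call here, but all members are far above the median signal of every array.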
